A study of Homo sapiens with 4 samples.

Results

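The 45 genes described here encode proteins that build ribosomes, most of them in the nucleolus. They were listed by function, with earlier results of these data known. Every probe set whose platform annotation gives a listed symbol alone was taken. Such probe sets existed for 38 genes, 79 probe sets in all out of 54613 on the array, and 19775 genes could be named this way in the whole series. Of the other 7, NOP56, DKC1, BOP1 and PPAN shared every probe set with another symbol. No probe set of the annotation used here named GNL3, EBNA1BP2 or DDX18, so no value is given for these 7 genes. Each gene was summarised by its brightest probe set, and all 38 passed the filter on dim probe sets.

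The arrays came from Raji, an Epstein-Barr virus-positive cell line established from a Burkitt lymphoma, a B-cell tumour driven by a translocated MYC gene. A clone with lowered expression of the long non-coding RNA gene DLEU1, made with TALENs (designed DNA-cutting enzymes), was compared with a wild-type control clone, with 2 Affymetrix arrays per clone. The treatment text in the labels names the DLEU1 TALENs for the control arrays too, while the design text calls that clone wild type. Each genotype is thus 1 clone, grown in RPMI medium with serum, and the sources used here do not say whether the duplicates are separate cultures, extractions or hybridisations. Every p-value below thus reflects array-to-array spread, which may be technical. DLEU1 itself was at 1363.4 and 1023.8 in the control duplicates and at 523.7 and 616.9 in the downregulated ones (log2 change -1.04 ± 0.24, SE, limma adjusted p = 3.20e-04). B-cell markers had a median control intensity of 996.7 over 7 measured genes, while the 6 T-cell and 5 monocyte markers had medians of 7.48 and 11.4. The deposited arrays do not share a common level, with trimmed mean intensities of 163 and 131 for control replicates 1 and 2, and 172 and 197 for downregulated replicates 1 and 2. Counts of calls, and the changes of the 38 genes, are therefore given for the values as deposited and after quantile normalization, which forces the 4 arrays to 1 distribution. Changes of single genes outside the 38, and of further probe sets, are as deposited unless said otherwise. Poly-A spike-ins, the foreign RNAs that control for labelling, were 0.26 higher in the downregulated duplicates on the log2 scale. Their part in the results was not tested.

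Ribosome production starts with RNA polymerase I, which transcribes the repeated rDNA genes inside the nucleolus, while RNA polymerase III makes the small ribosomal RNA and the transfer RNAs. Small nucleolar ribonucleoproteins (snoRNPs) then modify the precursor, and large sets of assembly factors fold and cut it into the small and the large subunit before export. In Burkitt lymphoma and other MYC-driven tumours many of these genes are known targets of MYC, which binds the E-box sequence.

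Of the 38 genes, 18 were higher in the downregulated clone and limma called 0 lower (26 and 0 at unadjusted p under 0.05). The share of all tested genes called higher was 20.3% (2701 of 13284), and 5.74% were called lower. After quantile normalization 17 were called higher and 4 lower, where 20.6% of all tested genes were called higher and 20.6% lower. All 17 were also called as deposited. The median log2 change of the 38 genes was 0.53, against 0.19 for all tested genes, and 0.19 against -0.01 after quantile normalization. Both downregulated arrays lay above both control arrays for 32 genes and below for 1, while 43.3% and 17.8% of all tested genes did so. After quantile normalization these counts were 24 above and 8 below, with 34.1% and 35.9% of all tested genes. The 38 genes were bright, 27 of them at or above the 75th percentile of brightness of all tested genes. With the filter raised to the 60th percentile, 18 of the 38 were higher, against 28.2% of all tested genes. The medians as deposited were then 0.53 and 0.30. The part of brightness in these counts was not tested. A gene is called when its adjusted p from limma, over all probe sets tested, lies under 0.05. Log2 changes are of the intensity with 16 added, downregulated minus control.

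The count as deposited depended on single arrays. It fell when control replicate 2 or either downregulated replicate was left out, and so did the share of all tested genes called higher. With either downregulated replicate left out, the share of the 38 genes was near that of all tested genes. Such fits leave 1 array for a clone, so changes are given instead of counts. Without control replicate 1 the median change as deposited was 0.69 (0.32 for all tested genes), and without control replicate 2 it was 0.40 (0.06). Without downregulated replicate 1 it was 0.61 (0.27), and without downregulated replicate 2 0.45 (0.13). After quantile normalization the medians were, in this order, 0.18, 0.20, 0.16 and 0.19. Control replicate 1 read higher than control replicate 2 for 38 of the 38 genes and for 85.8% of all tested genes, and downregulated replicate 2 higher than its replicate 1 for 35 of 38 and 78.7%. The median change of the 38 genes lay between 0.40 and 0.69 as deposited with any array left out.

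**Figure D1:**
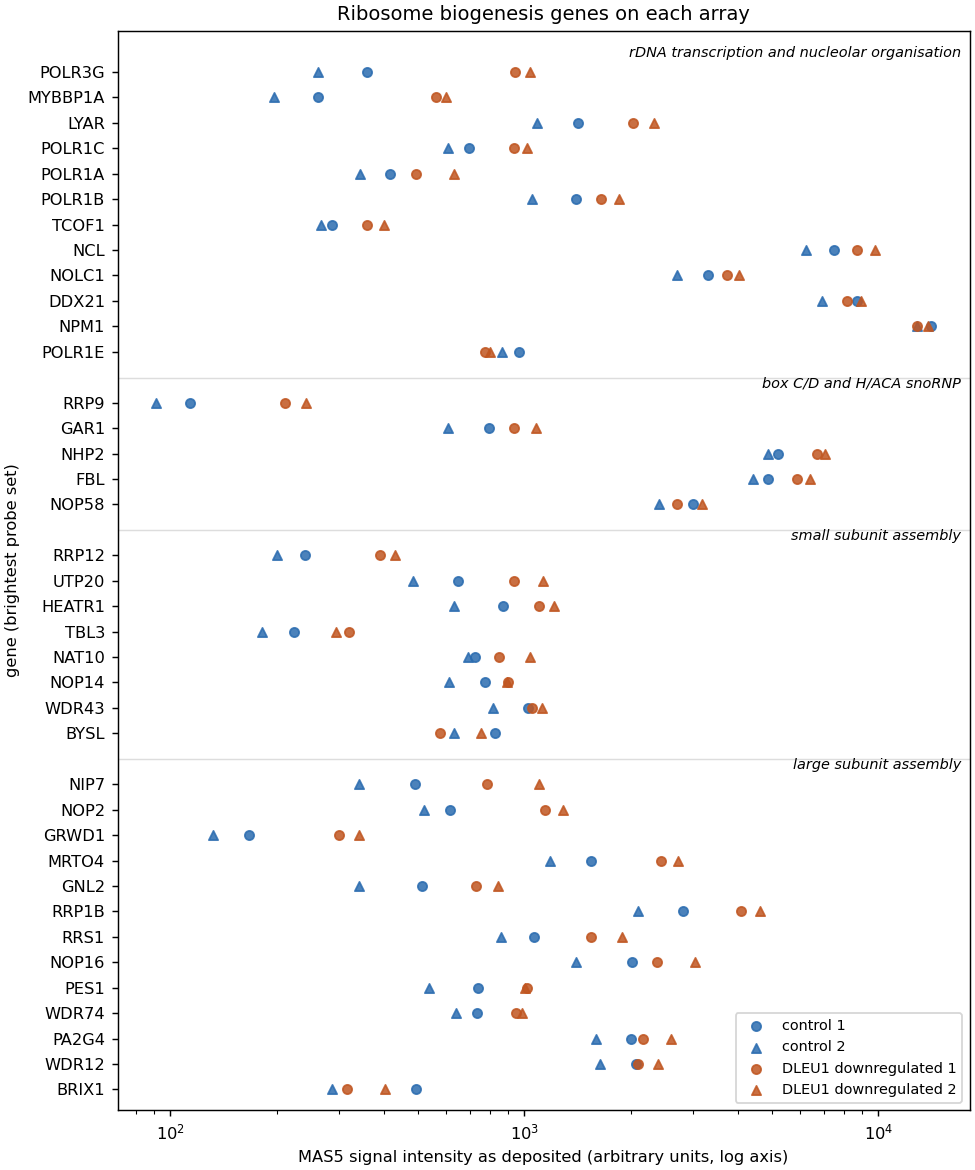
Signal intensity (x axis, log scale) of the brightest probe set of each of the 38 genes on each of the 4 arrays, with blue symbols for the control clone and orange ones for the DLEU1-downregulated clone. The orange symbols lie to the right of the blue ones for 32 genes, and for POLR1E they lie to the left.

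By stage of the process the counts differed. Among large subunit assembly factors 9 of 13 were called higher and 0 lower by limma, on both scales. The counts were 3 of 8 higher for small subunit assembly factors, 2 of 5 for snoRNP proteins and 4 of 12 for rDNA transcription and nucleolar organisation as deposited. After quantile normalization they became 3 higher and 1 lower, 1 and 1, and 4 and 2. Of all tested genes 20.3% were called higher and 5.74% lower as deposited, and 20.6% each way after quantile normalization. The snoRNP proteins were then at 20% higher and 20% lower, near those shares. The difference between the stages was not tested.

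Promoters of the genes were searched for short sequence motifs. RefSeq windows of 300 bases (GRCh38.p14, from 250 before to 50 after an annotated start) existed for 30 of the 38 genes, 36 windows in all. The E-box CACGTG, which reads the same on both strands, occurred in 15 of these 30 genes. It occurred in 12.3% of the 10711 tested genes with a window and in 7.26% of all 35116 windows. By call, 8 of the 13 genes higher on both scales held it, and 7 of the 17 others. The 8 are shown first, 30 bases each, 5′ to 3′ on the gene's strand, with the E-box in capitals.
MYBBP1A, chr17:4555340-4555369, minus strand: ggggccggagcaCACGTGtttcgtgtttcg
NOP2, chr12:6568242-6568271, minus strand: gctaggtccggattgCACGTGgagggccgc
RRP9, chr3:51941892-51941921, minus strand: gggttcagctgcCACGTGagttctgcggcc
MRTO4, chr1:19251807-19251836, plus strand: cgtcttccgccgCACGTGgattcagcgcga
GNL2, chr1:37595917-37595946, minus strand: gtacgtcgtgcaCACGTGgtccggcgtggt
UTP20, chr12:101280083-101280112, plus strand: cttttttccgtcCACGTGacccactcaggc
LYAR, chr4:4290068-4290097, minus strand: cggcggcgagtcCACGTGctccccgcggcc
PES1, chr22:30591880-30591909, minus strand: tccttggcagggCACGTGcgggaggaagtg
The E-box also occurred in genes that were not called higher, of which 3 are shown. The snoRNP methyltransferase gene FBL was called on neither scale, and BYSL and DDX21 were lower after quantile normalization.
FBL, chr19:39846356-39846385, minus strand: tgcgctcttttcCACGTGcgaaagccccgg
BYSL, chr6:41921515-41921544, plus strand: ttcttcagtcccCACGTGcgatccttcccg
DDX21, chr10:68956604-68956633, plus strand: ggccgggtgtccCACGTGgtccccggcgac

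The E-box began 28 bases into the transcript in MYBBP1A, 36 in NOP2, 15 in MRTO4, 14 in PES1 and 4 in GNL2, counting the annotated start as 1. It began 5 bases before the start in RRP9, 10 before it in UTP20 and 64 before it in LYAR. Other motifs were searched on both strands, and a window can hold several. The ETS-type sequence CCGGAAGT was found in 6 of the 30 genes (9.32% of tested genes), CGCATGCG, the core of the NRF1 motif, in 1 (4.39%), TATAAA in 2 (9.44%) and the SP1-type GGGCGG in 19 (72.5%). MYBBP1A was the gene with CGCATGCG. Its 250 bases before the start, and those of RRP9 with the first 6 transcribed bases, are shown. Both genes rose at least 2-fold as deposited, and their windows hold the E-box and GGGCGG. GRWD1 also rose at least 2-fold and held CCGGAAGT and GGGCGG without the E-box, and its bases are not shown. Capitals mark GGGCGG or its reverse complement, CGCATGCG and CACGTG.
MYBBP1A, chr17:4555385-4555634, minus strand: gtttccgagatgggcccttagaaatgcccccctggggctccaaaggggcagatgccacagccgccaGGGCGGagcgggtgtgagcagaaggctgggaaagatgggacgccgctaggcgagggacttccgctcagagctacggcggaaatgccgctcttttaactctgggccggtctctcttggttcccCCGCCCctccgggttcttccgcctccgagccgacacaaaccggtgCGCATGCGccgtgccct
RRP9, chr3:51941899-51942154, minus strand: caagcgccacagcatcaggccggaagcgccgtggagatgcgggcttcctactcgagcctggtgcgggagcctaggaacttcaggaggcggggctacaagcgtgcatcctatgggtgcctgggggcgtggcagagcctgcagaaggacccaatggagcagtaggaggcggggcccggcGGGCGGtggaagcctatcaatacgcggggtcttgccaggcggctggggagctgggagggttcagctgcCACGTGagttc
A match describes the letters only, and no binding was measured.

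The RNA polymerase genes split. POLR3G, a subunit of RNA polymerase III typical of proliferating and stem cells, was at 359.7 and 260.6 in the control duplicates and at 938.1 and 1034.7 in the downregulated ones. It showed the largest rise among the 38 genes, with a log2 change of 1.64 ± 0.25 (SE, n = 2 arrays per clone, limma adjusted p = 8.87e-09), and 1.28 after quantile normalization. POLR3G was called in every fit run, but its other 2 tested probe sets, which read 6.8 to 61.7, changed by 0.04 and 0.35 and were not called. The subunits of RNA polymerase I moved less. POLR1A and POLR1B, the large catalytic subunits, had log2 changes of 0.54 and 0.52, and POLR1C, shared with RNA polymerase III, 0.57, with limma adjusted p-values of 0.113, 0.0783 and 0.0746. After quantile normalization the changes of POLR1A, POLR1B and POLR1C were 0.20, 0.17 and 0.21. Their groups of arrays did not overlap, and none was called on either scale. A dimmer probe set of POLR1B was called, with a change of 1.05 that remained 0.75 after quantile normalization. POLR1E, a peripheral subunit, was the lone gene of the 38 with both downregulated arrays (775.3 and 797.9) below both control arrays (967 and 865.3). Its log2 change was -0.21 as deposited (limma adjusted p = 0.582). After quantile normalization it was -0.56 and called lower (adjusted p = 7.25e-04). Its other 2 tested probe sets gave 0.07 and 0.14.

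Among regulators and scaffold proteins of the nucleolus, MYBBP1A rose most. This nucleolar protein, a binding partner of MYB that represses rDNA transcription, went from 260.8 and 196.3 to 563.6 and 600.3. The change was 1.30 ± 0.26 (SE, limma adjusted p = 1.41e-05), 0.98 after quantile normalization, and 1.22 in its other probe set, also called. LYAR, a zinc finger protein of the nucleolus in growing cells, went from 1419.8 and 1084.4 to 2030 and 2320.6 (log2 change 0.80, limma adjusted p = 0.00280). After quantile normalization the LYAR change was 0.43, and its other probe set was called too at 0.73 as deposited. The abundant structural proteins differed among themselves. NCL, nucleolin, read 7471.1 and 6239.8 against 8683.1 and 9753.4, a change of 0.43 (limma adjusted p = 0.0320). It was still called at 0.16 once the arrays were quantile-normalized (adjusted p = 0.0109). NPM1, nucleophosmin, read 14061.6 and 12809.4 against 12884.8 and 13779.9, so its groups overlapped. Its change of -0.01 had a 95% interval from -0.28 to 0.26. After quantile normalization it was -0.06 and not called (limma adjusted p = 0.157), with both downregulated arrays below both controls. The other 2 NPM1 probe sets changed by 0.06 and 0.20 as deposited and were not called. After quantile normalization they stood at -0.16 and -0.12, and both were called lower (limma adjusted p = 0.00545 and 0.0276). NPM1 was also the brightest of the 38 genes, above 99.7% of all tested genes. The scaffold NOLC1 and the RNA polymerase I cofactor TCOF1 changed by 0.38 and 0.44 (limma adjusted p = 0.140 and 0.229), and by 0.02 and 0.11 after quantile normalization. A dimmer TCOF1 probe set was called at 0.76. The helicase DDX21, which links rDNA transcription to processing, read 8699.5 and 6915.8 against 8172.7 and 8937.9. Its change turned from 0.14 as deposited to -0.14 after quantile normalization, where it was called lower (limma adjusted p = 0.0413).

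Among the snoRNP proteins RRP9, a component of the snoRNP that guides the first cuts of the precursor, rose most. It was the dimmest of the 38 genes, at 113.9 and 91.3 in the control clone and 210.7 and 241.3 in the downregulated clone. RRP9 changed by 1.03 ± 0.26 (SE, limma adjusted p = 8.41e-04), and by 0.76 after quantile normalization. NHP2, a core protein of the pseudouridine-forming H/ACA snoRNPs, read 5195.5 and 4864.1 against 6686.2 and 7079.4. It was called as deposited (0.45, limma adjusted p = 0.0368) and missed the threshold when quantile-normalized (0.14, adjusted p = 0.0695). NHP2 is the single gene whose call as deposited was lost. Its partner GAR1 and the box C/D methyltransferase FBL changed by 0.52 and 0.40 and were not called (limma adjusted p = 0.111 and 0.0752). After quantile normalization GAR1 stood at 0.14 and FBL at 0.09. NOP58, a core box C/D protein, read 2992.5 and 2407.2 against 2696 and 3175.2, so its groups overlapped. Its change was 0.12 as deposited and -0.25 after quantile normalization, where limma called it lower (adjusted p = 0.00311).

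Of the small subunit assembly factors, 3 rose on both scales. UTP20, a large scaffold of the processome that assembles on the early precursor, read 647.7 and 483 against 932.6 and 1126.6 (log2 change 0.86 ± 0.24, limma adjusted p = 0.00431, and 0.50 after quantile normalization). RRP12, an export factor of the maturing subunit, read 240.1 and 200.4 against 391.8 and 431.4, with the same log2 change of 0.86 (limma adjusted p = 0.00742), which became 0.54. None of the other 3 tested probe sets of RRP12 was called, and they read 12.6 to 55.3. HEATR1, another processome scaffold, read 870.9 and 631.1 against 1097.4 and 1209.4, a change of 0.62 (limma adjusted p = 0.0420), and 0.26 after quantile normalization. Of its other 3 tested probe sets 2 were called, at 0.69 and 0.82. The processome proteins TBL3, NOP14 and WDR43 had log2 changes of 0.56, 0.37 and 0.25, and the RNA acetyltransferase NAT10 of 0.39. After quantile normalization these were 0.26 for TBL3, 0.01 for NOP14, -0.10 for WDR43 and 0.03 for NAT10. WDR43 thus turned negative, with both downregulated arrays below both controls, and none of these 4 genes was called on either scale. BYSL, bystin, a late factor, read 828.5 and 632.1 against 579.2 and 754.7. Its change was -0.13 as deposited (limma adjusted p = 0.770), with overlapping groups. After quantile normalization it was called lower at -0.49 (adjusted p = 0.00155).

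**Figure D2:**
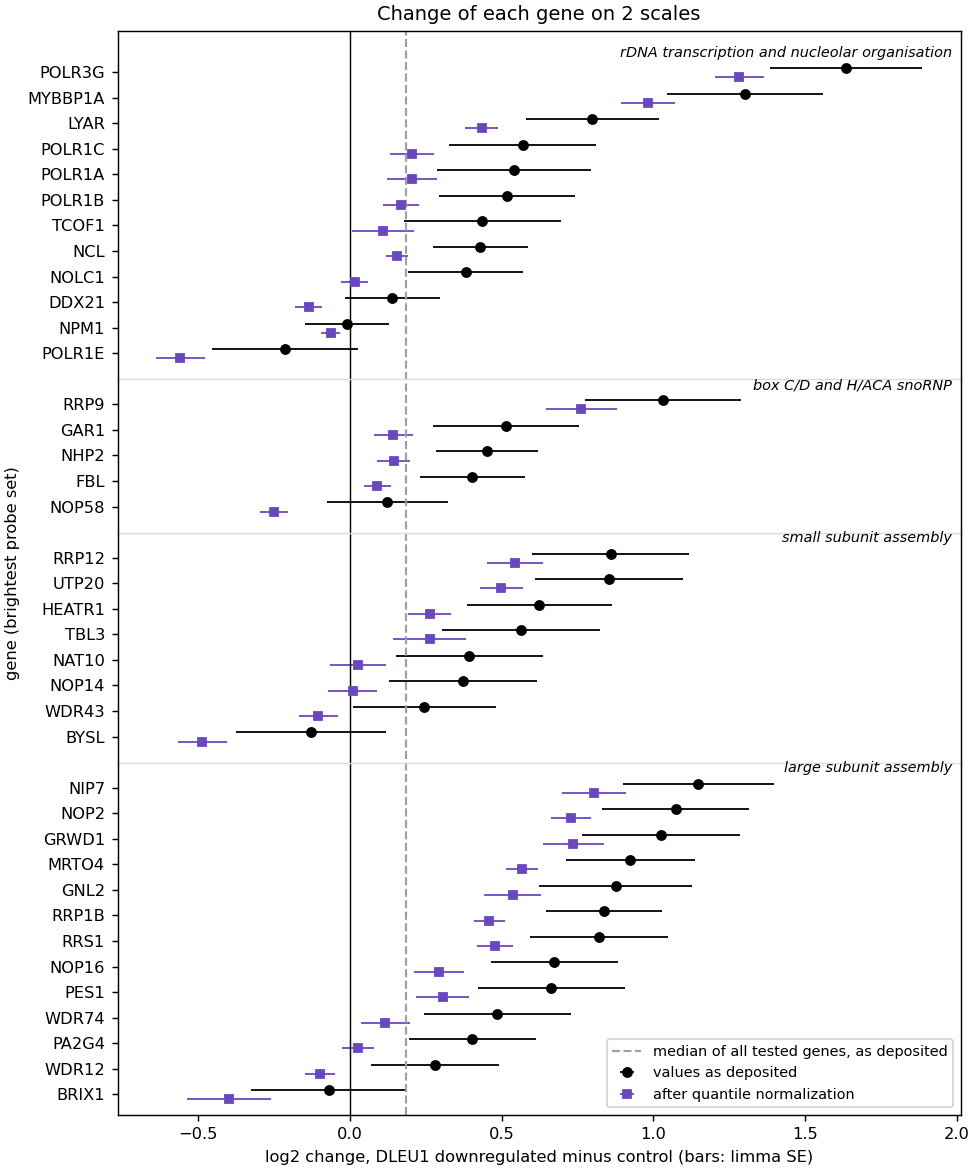
Log2 change of each gene (x axis, downregulated minus control, bars are limma standard errors) as deposited in black and after quantile normalization in purple, with the median of all tested genes as deposited (0.19) as a dashed line. The purple points lie to the left of the black ones throughout, and POLR3G, MYBBP1A, NIP7, NOP2, RRP9 and GRWD1 stay the highest on both scales.

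Among the 38 genes the large subunit factors held the most called ones. NIP7, which acts early in assembly, went from 491.7 and 341.8 to 785.6 and 1097.8 (log2 change 1.15 ± 0.25, limma adjusted p = 8.83e-05, and 0.80 after quantile normalization). Its other probe set changed by 0.54 and was not called. NOP2, a methyltransferase of the large subunit RNA, read 618.2 and 520.5 against 1146.4 and 1281.4 (1.07 ± 0.24, limma adjusted p = 1.70e-04, and 0.73 after quantile normalization). GRWD1, a chaperone of a ribosomal protein, read 167.1 and 131.7 against 299.1 and 340.1 (1.03 ± 0.26, limma adjusted p = 0.00105, and 0.74 after quantile normalization). These 3, with POLR3G, MYBBP1A and RRP9, were the 6 genes that rose at least 2-fold as deposited, and 6.41% of all tested genes did so. After quantile normalization POLR3G was the 1 gene of the 38 past 2-fold, with 2.67% of all tested genes.

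MRTO4, a relative of the ribosomal stalk protein that holds its place during assembly, read 1537.6 and 1179.8 against 2436.9 and 2714 (0.92, limma adjusted p = 2.75e-04, and 0.57 after quantile normalization). Its other probe set rose by 1.05. GNL2, a GTPase of nucleolar maturation, read 513.3 and 341.8 against 728.2 and 840.9 (0.88, limma adjusted p = 0.00446, and 0.54 after quantile normalization). RRP1B read 2810.4 and 2097 against 4094.8 and 4627.7 (0.84, limma adjusted p = 2.34e-04, and 0.46 after quantile normalization), while its dim other probe set changed by 0.51 without a call. RRS1, which helps to bring the small RNA of the large subunit into the particle, read 1067.8 and 860.6 against 1544.2 and 1883.2 (0.82, limma adjusted p = 0.00324, and 0.48 after quantile normalization). In each of these genes the arrays of the 2 clones were apart on both scales.

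NOP16 and PES1 were nearer the threshold. NOP16 read 2007.6 and 1397.7 against 2365 and 3038.5 (0.67, limma adjusted p = 0.00957, and 0.29 after quantile normalization), and a dimmer probe set of it rose by 1.18 while the other 2 tested ones were not called. PES1, pescadillo, read 737.8 and 538 against 1014.8 and 1000.8 (0.66, limma adjusted p = 0.0325, and 0.31 after quantile normalization). PES1 works in a complex with WDR12 and BOP1. WDR12 was not called, at 0.28 as deposited and -0.10 after quantile normalization. WDR74 and PA2G4 had changes of 0.49 and 0.40, and of 0.12 and 0.03 after quantile normalization, and were not called, although a dimmer PA2G4 probe set was, at 0.88. BRIX1 read 492.7 and 285.2 against 315.8 and 403.9, with overlapping groups and a change of -0.07. After quantile normalization it stood at -0.40 (limma adjusted p = 0.0525).

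Probe sets of a gene often differed. For 21 genes more than 1 probe set was tested, with 36 besides the brightest, and 22 of these 36 had the same call as the brightest. Limma called 9 of them higher and 0 lower as deposited. With the brightest probe sets included, 74 were tested, of which 27 were higher and 0 lower as deposited. After quantile normalization 26 were higher and 6 lower, 2 of the 6 being the further NPM1 probe sets. Of all 32768 tested probe sets 5620 were higher and 1673 lower as deposited, and 5584 and 5488 after quantile normalization. In 7 called genes at least 1 further probe set was not called, and in 3 uncalled genes (POLR1B, TCOF1 and PA2G4) another probe set was. Counting any probe set, 21 genes had at least 1 called higher as deposited. No such count is given for all tested genes.

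**Figure D3:**
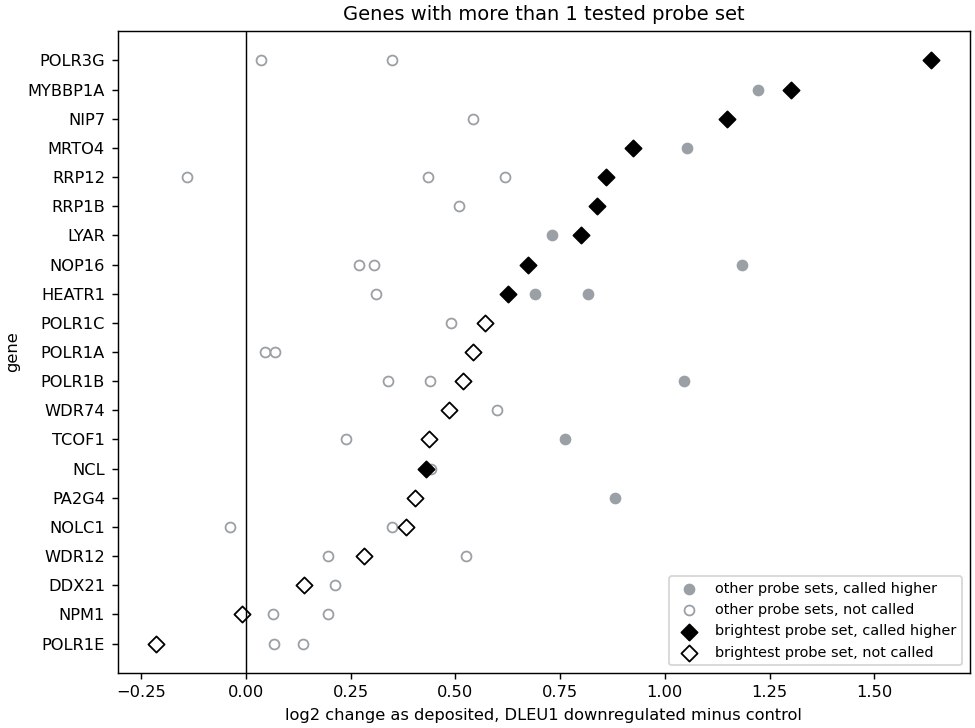
Log2 change as deposited (x axis) of each tested probe set of the 21 genes with more than 1, with diamonds for the brightest probe set, grey circles for the others and filled symbols for those called higher. The probe sets of POLR3G and RRP12 lie far apart, those of MYBBP1A, LYAR and MRTO4 close together.

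The dimmer of the 38 genes had the larger median change. The 19 with the lower control intensities (102.6 to 710.2) included 10 called genes and had a median change of 0.66. The 19 brighter ones (730.3 to 13436) included 8 and had a median of 0.40. After quantile normalization the dimmer 19 had 10 genes higher and 0 lower by limma, and the brighter 19 had 7 and 4. Of all tested genes, at any brightness, 20.3% were called higher and 5.74% lower as deposited, and 20.6% each way after quantile normalization. The 4 lower genes of the brighter 19 are near that last share. Spearman's rho between mean log2 level and log2 change was -0.43 over the 38 genes and 0.34 over all tested genes, and -0.42 and 0.05 after quantile normalization. Genes share the 4 arrays, so these values only describe them. Level and change come from the same intensities. The split into 19 and 19 was made after the values were seen.

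**Figure D4:**
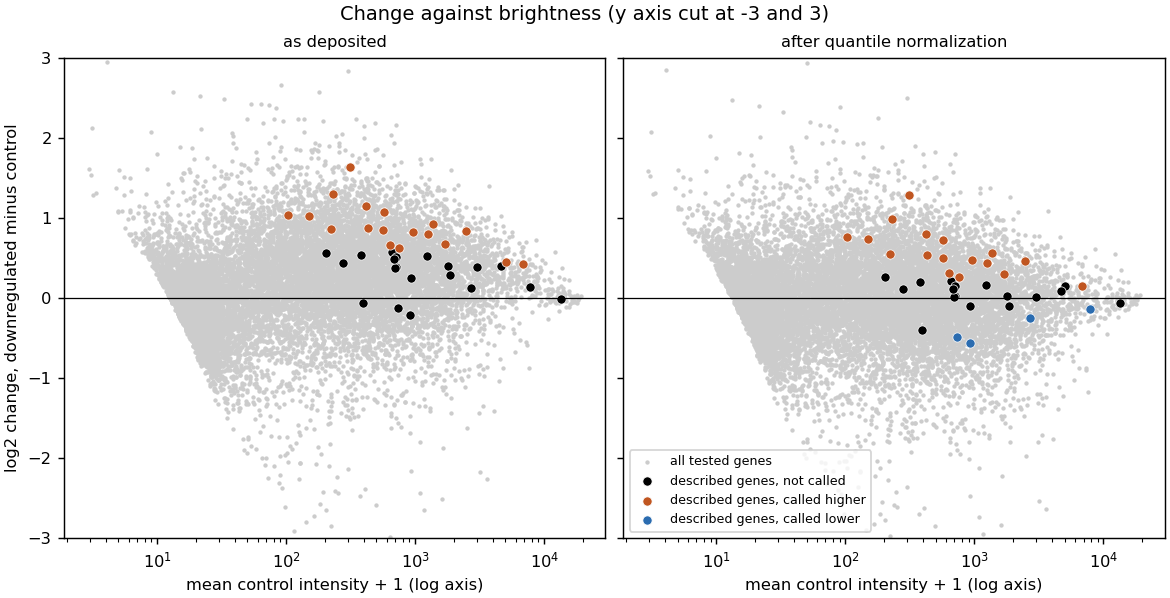
Log2 change (y axis) against mean control intensity (x axis, log scale) for all tested genes in grey and the 38 genes in colour, as deposited on the left and after quantile normalization on the right. The 18 called genes (orange) reach from 102.6 (RRP9) to 6855 units (NCL), and on the right the 4 genes called lower (blue) lie at 730.3 units and above.

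The genes lie on 16 chromosomes, and the 18 called ones on 13 of them. Chromosome 2 held 6 genes with 1 called (NCL), where 18.0% of all tested genes were called higher. Chromosome 5 held 6 with 3 called (POLR3G, NHP2 and NOP16), against 19.8% of all tested genes, and 2 after quantile normalization. The 3 genes of chromosome 1 (MRTO4, GNL2 and HEATR1) were all called, where 18.6% of the 1313 tested genes were called higher.

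Other genes of ribosome production were counted from lists set by function, also with earlier results of these data known. The shares of all tested genes to set beside them are 20.3% higher and 5.74% lower as deposited. After quantile normalization they are 20.6% each way. Of 50 further small subunit factors 22 were higher and limma called 0 lower, and 23 were higher and 9 lower after quantile normalization, with a median log2 change of 0.47 as deposited and 0.15 after it. Led by p-value, these were BUD23, a methyltransferase of the small subunit RNA (520.5 and 448.3 against 1399.5 and 1548.1), TSR3, another enzyme of that RNA (204.2 and 189.2 against 612.4 and 708.9), and EMG1, a further methyltransferase (log2 change 0.91). NGDN, RIOK2 and NOB1 had the largest of the 9 falls after quantile normalization, at -0.80, -0.69 and -0.68. Of 47 further large subunit factors 18 were higher and 2 lower, and after quantile normalization 19 and 13. The share higher was 38.3%, below the 44% of the further small subunit factors, and 40.4% against 46% after quantile normalization. The larger share of large subunit factors among the 38 genes was thus not repeated in these lists. After quantile normalization 27.7% of this list was lower. NOM1, the helicase DDX27 and the giant ATPase MDN1 rose by 1.30, 1.19 and 1.18. RPF1 fell on both scales (2258.5 and 1752.4 against 977 and 1187.7), as did ZNF622, a factor of late steps in the cytoplasm (659.4 and 532.3 against 332.2 and 387.9).

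For RNA polymerase I, 6 of 18 further genes were higher and limma called 0 lower (6 and 3 after quantile normalization). UBTF, the factor that keeps rDNA open, read 332.8 and 272.9 against 647.8 and 774.4 (log2 change 1.19, limma adjusted p = 6.92e-05), and the subunits POLR1G and POLR1F rose by 0.98 and 0.90. POLR2L and POLR1D fell only after quantile normalization (-0.83 and -0.71). For RNA polymerase III, 5 of 20 were higher and 1 lower (6 and 4 after quantile normalization), which is near the shares of all genes. The initiation factor subunits GTF3C6 and GTF3C4 and the small RNA factor GTF3A rose by 0.98, 1.09 and 0.58, and the subunit POLR3D fell (170.8 and 146.2 against 94.6 and 85.6). RNase P and RNase MRP, which cut precursor RNAs, had 4 of 9 subunits higher and 0 lower by limma (4 and 1 after quantile normalization). POP1, their largest protein, read 122.8 and 130.8 against 436.3 and 573.1 (log2 change 1.85), and POP7 and RPP40 rose by 1.10 and 1.06.

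Of 15 further snoRNP proteins and assembly factors 4 were higher and 0 lower by limma as deposited, with 3 and 5 after quantile normalization. The 4 of 15 are 26.7%, near the share of all genes. SHQ1, TGS1 and SNU13 rose by 0.87, 0.88 and 0.82. Of 17 genes of the RNA exosome and of rRNA end processing 4 were higher and 1 lower, which is near the shares of all genes (23.5% and 5.88%). After quantile normalization 4 were higher and 7 lower (41.2%), with a median of -0.13. DIS3L, ISG20L2 and XRN2 rose by 1.33, 0.95 and 0.96, and the exonuclease gene ERI1 fell (534 and 445.2 against 285.3 and 299.3). Of 79 listed cytosolic ribosomal protein genes 53 were tested and 26 had no value. Limma called 0 of the 53 in either direction as deposited (0 at unadjusted p under 0.05). After quantile normalization it called 0 higher and 11 lower. Those 11 are 20.8%, near the 20.6% of all tested genes called lower on that scale. The median log2 change of the 53 was 0.01 as deposited and -0.04 after quantile normalization, at a median control intensity of 13114. The 3 with the smallest p were RPS25, RPL36A and RPL24, at 0.27, 0.35 and -0.12 as deposited (limma adjusted p = 0.194, 0.399 and 0.581).

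**Figure D5:**
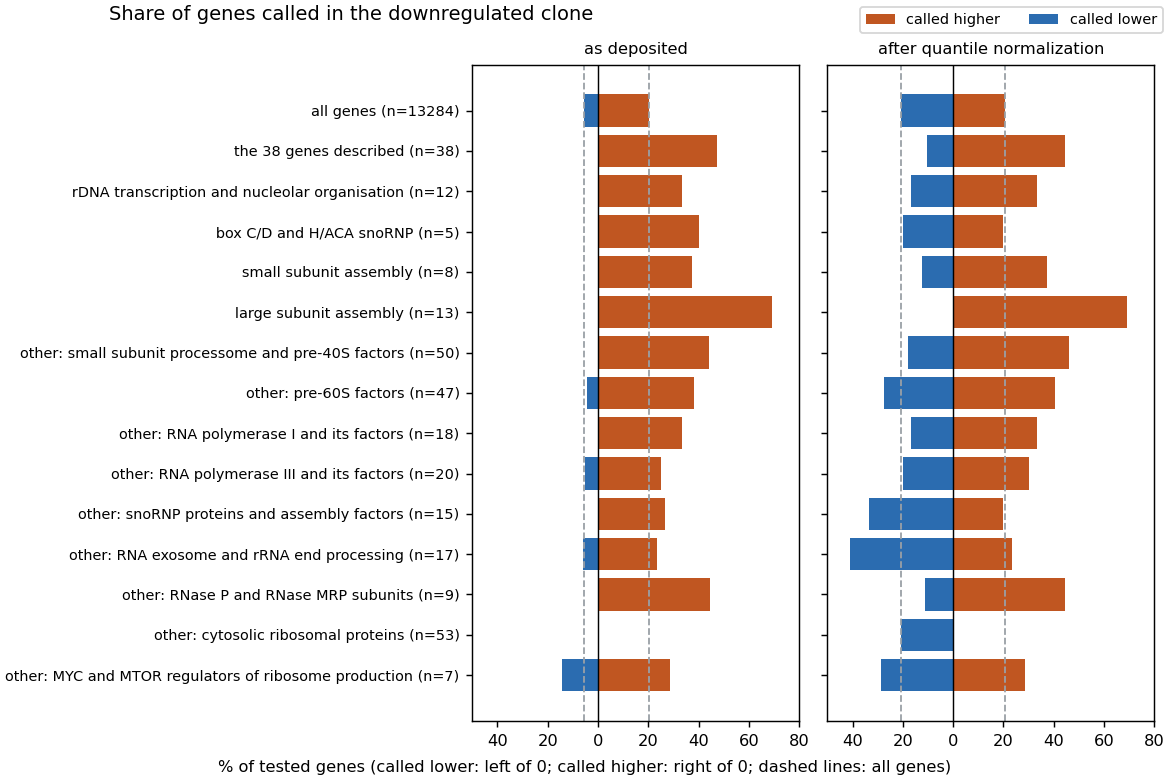
Percent of tested genes called higher (orange, right of 0) or lower (blue, left of 0) in each list, as deposited on the left and after quantile normalization on the right, with dashed lines at the shares of all genes. Large subunit assembly (9 of 13 called higher) reaches farthest, and cytosolic ribosomal proteins have no bar on the left panel. On that panel the further large subunit factors (38.3% higher) reach less far than the further small subunit factors (44%).

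Among 7 regulators of ribosome production, MTOR, the growth kinase, rose by 0.86 and LARP1, which binds ribosomal protein messages, by 0.59. EIF4EBP1, the translation repressor that MTOR inactivates, fell from 238.6 and 202.5 to 17.6 and 15.6 (log2 change -2.86, and -2.97 after quantile normalization). The downregulated values lie near the added 16, so that number sets the size in part. MYC read 6348.8 and 5506.8 against 5178.9 and 6990.5. Its log2 change was 0.03 as deposited and -0.29 after quantile normalization, where limma called it lower (adjusted p = 0.0159). Over all these further lists 5 of 236 tested genes were lower as deposited (2.12%, against 5.74% of all tested genes). After quantile normalization 55 were lower (23.3%, against 20.6%). Of the 5 genes lower as deposited, 3 (EIF4EBP1, POLR3D and ERI1) lie on chromosome 8, where 10.9% of the 475 tested genes were lower. An array of bulk RNA reports a transcript relative to the RNA labelled, so fewer cells of a type and less RNA per cell cannot be told apart.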

How the data were processed

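The authors deposited 1 table of linear signal intensity per probe set, made with MAS5 per the submitters' processing notes (version and target intensity are not stated there). From these values log2(intensity + 16) was taken, control probe sets were left out, and so were 21845 dim probe sets whose mean lay below the 40th percentile, leaving 32768 and 13284 genes. Limma 3.58.1 in R 4.3.3 (lmFit, eBayes with an intensity trend, group as the only term, Benjamini-Hochberg) was fitted to all of them. The prior degrees of freedom were infinite as deposited, so probe sets of like brightness shared 1 spread, and 6.75 after quantile normalization. With 2 arrays per clone their number limits the precision. The fit was tested on simulated data.

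A gene's brightest probe set among those naming it alone stood for it. Symbols were updated through RefSeq (GRCh38.p14). Members and lists were chosen with earlier results of these data known, by function, and named genes follow a written rule: every member, and from each further list the 3 smallest p and genes called lower (NGDN, RIOK2, NOB1, POLR2L, POLR1D and MYC, lower after quantile normalization only, were picked after their values were seen). The rule gave promoters for MYBBP1A, NOP2, RRP9 and MRTO4, cut to 30 bases around the E-box, with the bases before the start for MYBBP1A and RRP9. The other 7 stretches, and array values of NPM1 and BRIX1, were added after the values were seen. The alternatives were other pseudocounts, filters, scalings, a replicate block, no trend, omitted arrays, probe set rules and a threshold of 0.01. Cyclic loess, and omitted arrays after quantile normalization, were added after the data were seen.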

Additional observations from a re-analysis of the deposited data

How the results depend on the processing

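The median of the 38 genes stayed positive, and POLR3G was called higher, under every alternative run. Other scalings changed the number of genes called lower, the median and the direction of some genes. Left-out arrays and the replicate block lowered the number called higher most, for the 38 genes as for all tested genes. The number of genes called lower by limma was 4 after quantile normalization and with a common trimmed mean, 5 with a replicate block and quantile normalization, and 6 after cyclic loess. The median log2 change was 0.19, 0.21, 0.19 and 0.17 in the same order. Of all tested genes 20.6%, 22.2%, 20.5% and 21.4% were called lower in these fits. Median centring gave 31 genes higher and 0 lower, with 36.7% of all tested genes higher and 8.42% lower. Its cause was not tested. The NOP58 log2 change and the DDX21 log2 change turned negative after quantile normalization with or without the block (-0.25 and -0.14) and after cyclic loess (-0.21 and -0.16), and with the common trimmed mean (-0.20 and -0.19). WDR12 and WDR43, called on neither scale, also turned negative after quantile normalization, which makes 4 genes in all.

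With arrays left out, on either scale, the number higher ran from 1 to 19, the number lower from 0 to 5 and the median from 0.16 to 0.69. The NOP58 log2 change ran from -0.27 to 0.28 and the DDX21 log2 change from -0.195 to 0.30. After quantile normalization, leaving out control replicate 1, control replicate 2, downregulated replicate 1 or downregulated replicate 2 gave, in this order, 3, 5, 3 and 3 genes lower, medians of 0.18, 0.20, 0.16 and 0.19, and NOP58 at -0.23, -0.27, -0.23 and -0.27. Over all tested genes the median in these fits ran from -0.02 to 0.32. Their share called higher was smallest and largest in the same fits as the number of the 38 genes. After quantile normalization a larger share of all tested genes than of the 38 was called lower each time. Such fits leave 1 array for a clone, and this lone array was assumed to vary like the other group. With the replicate block 1 gene was called higher as deposited, where 3.86% of all tested genes were. After quantile normalization the block gave 17 genes higher, with 20.7% of all tested genes. Equal replicate numbers were not shown to pair arrays (correlation of deviations -0.05). Without the filter on dim probe sets 13 genes were higher (8.88% of all tested genes). The count was 14 at a threshold of 0.01 (13.2%) and 15 without the intensity trend (18.4%). It was 16 when probe sets prone to cross-hybridise were left out (20.2%) or a gene's probe sets were averaged (19.8%).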
